A study of Mus musculus with 8 samples.

Results

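Cluster 3 was a group of cycling T cells among mouse splenic CD4 T cells from Gpr65 knockout (KO) and wild-type (WT) animals, profiled by single-cell RNA sequencing. Its members were the cells to which the authors' deposited table gave cluster number 3 and at least 500 detected genes, which made 8862 of the 101688 cells kept by that minimum (8.71%). Of the 8914 deposited cells of the cluster, 52 fell below the minimum. The 175 cells just inside it, with 500 to 599 genes, drew 0.877% of their UMIs (unique molecular identifiers, which count captured mRNA molecules) from a list of 52 genes of G2 and mitosis (the G2/M list), and the 50 cells just outside, with 400 to 499 genes, 0.861%. Cluster numbers came from the authors' own grouping of these cells, so expression that sets the cluster apart from the others is described here and not tested.

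The 4 groups were KO Th22, WT Th22, KO Th17 and WT Th17, with 2 libraries each. All came from spleens of female mice aged 10 weeks and were harvested on day 3 of culture. The cytokines IL-1b and IL-23 went into every culture, 20 ng/ml of either. Th22 cultures had 40 ng/ml of IL-6 and 400 nM of FICZ, which activates the aryl hydrocarbon receptor (AHR). Th17 cultures had 25 ng/ml of IL-6 and, by the labels, no FICZ, so a difference between Th22 and Th17 carries both changes. KO cells carried the genotype label Gpr65_KO and WT cells Gpr65_WT. Whether the 2 libraries of a group stem from different mice is not stated in the labels. A p-value therefore reflects only how far these libraries differ among themselves, and that spread may be technical.

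Dividing cells copy their DNA in S phase and separate it in mitosis, after a gap called G2. Genes needed for mitosis are held off by the DREAM repressor in resting cells and are switched on late in the cycle by the MYB-MuvB and FOXM1 factors, which act through a promoter element called the cell cycle genes homology region (CHR) and through CCAAT boxes bound by NF-Y. Activated CD4 T cells pass through this programme repeatedly while they take on a helper fate. Gpr65 encodes a receptor on the cell surface that senses extracellular protons.

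The 4 genes that name the cluster are Mki67, whose product coats mitotic chromosomes, Top2a, the topoisomerase that untangles replicated DNA, Nusap1, a protein of spindle microtubules, and Birc5, the survivin subunit of the chromosomal passenger complex. Promoter windows from 250 bases before to 50 bases after the start of the gene are printed for Mki67 and Top2a, because both hold the elements named above in these windows. They were taken from RefSeq on GRCm38.p6, both lie on the minus strand and both read 5′ to 3′ towards the gene. Capitals mark TTTGAA (the CHR core) and CCAAT, or their reverse complements TTCAAA and ATTGG.
Mki67, chr7:135716330-135716629: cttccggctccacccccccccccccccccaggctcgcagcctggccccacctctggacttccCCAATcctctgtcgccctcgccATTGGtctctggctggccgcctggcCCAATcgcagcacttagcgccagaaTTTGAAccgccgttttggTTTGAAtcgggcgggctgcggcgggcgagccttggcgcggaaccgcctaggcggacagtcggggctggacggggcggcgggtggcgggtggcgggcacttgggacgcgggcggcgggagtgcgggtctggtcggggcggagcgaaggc
Top2a, chr11:99024140-99024439: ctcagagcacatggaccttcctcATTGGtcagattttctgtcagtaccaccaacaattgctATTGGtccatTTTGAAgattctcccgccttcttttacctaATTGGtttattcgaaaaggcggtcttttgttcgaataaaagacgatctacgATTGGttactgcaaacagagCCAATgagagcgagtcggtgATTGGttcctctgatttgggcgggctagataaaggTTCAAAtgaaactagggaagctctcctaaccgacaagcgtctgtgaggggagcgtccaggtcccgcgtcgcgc
The Mki67 window held 2 CHR cores, starting at positions -116 and -98 from the start, and 3 CCAAT boxes. The Top2a window held 2 CHR cores, at -179 and -23, and 6 CCAAT boxes. The windows of Nusap1 and Birc5 held none of these letters. Of the 20 genes that led the cluster (below), 16 had a window, and 10 of those 16 (62.5%) held a CHR core, against 1513 of all 11976 windows (12.6%). A CCAAT box stood in 13 of the 16 windows, against 38.5% of all windows, and both elements together stood in 9 of the 16, against 5.26%. The E2F element GCGGGAA, searched on both strands as well, stood in 2 of the 16 windows, against 7.97% of all. These are matches of letters in the RefSeq windows, and binding was not measured.

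The 4 genes that name the cluster were higher in it than in the other clusters together. The label rests on these same cells, so the levels describe it and do not test it. In UMIs per 1000000 UMIs of the same cells (UPM), Nusap1 stood at 375 ± 89.0 in cluster 3 and 68.5 ± 21.9 in all other clusters together (SD, n = 8 libraries). Birc5 stood at 225 ± 34.8 in cluster 3 and 40.5 ± 8.74 in the others, and Mki67 at 190 ± 20.9 in cluster 3 and 34.8 ± 8.46 in the others. Top2a, at 646 ± 119 in cluster 3, ranked 22 by its ratio to the other clusters among the 2182 genes with at least 50 UPM in cluster 3. Of these genes, 85 were at least 2-fold higher in cluster 3 than in the others (3.9%), and of the 2079 genes with at least 50 UPM in the others, 6 were at least 2-fold lower in cluster 3 (0.289%). The T cell identity genes, such as the CD3 chains and Lck, were at the same level in cluster 3 and in the others, with a median log2 ratio of 0.01 over 14 genes.

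**Figure D1:**
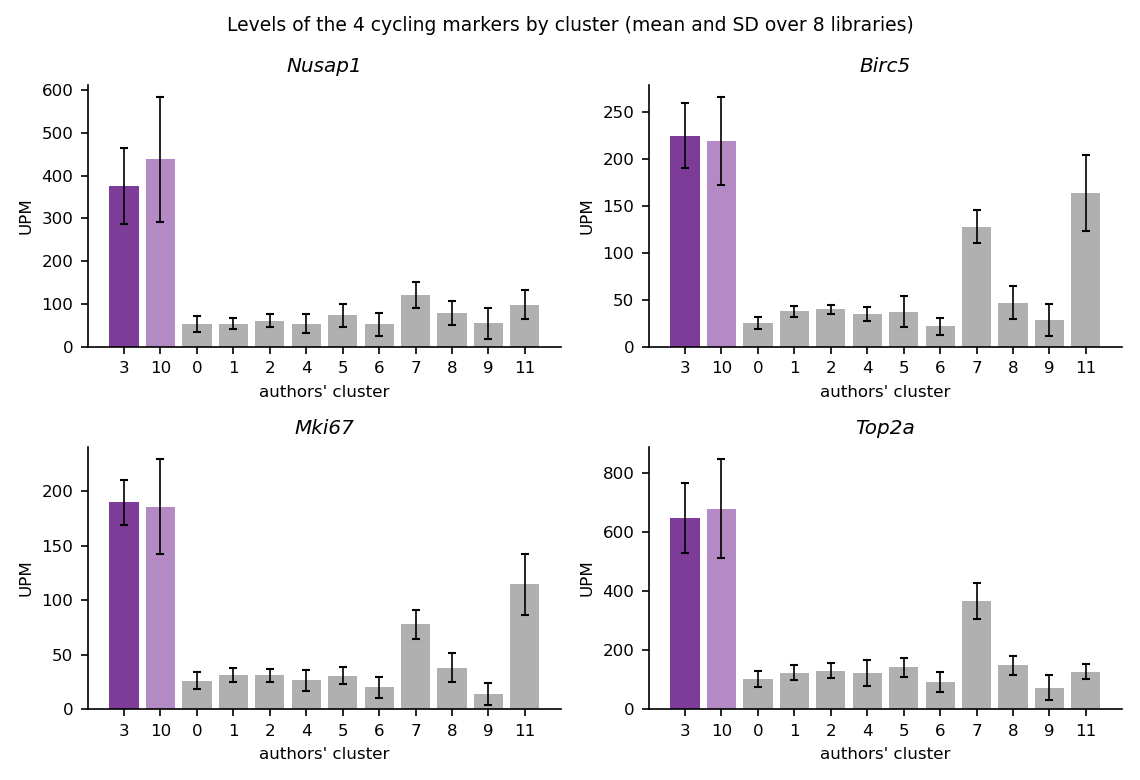
Level of each of the 4 naming markers in UPM (vertical axes) in each of the authors' 12 clusters (horizontal axes); bars are means and whiskers SDs over 8 libraries, with cluster 3 in dark purple, cluster 10 in light purple and the rest in grey. Clusters 3 and 10 stand highest for all 4 genes, with Mki67 at 190 in cluster 3 and 186 in cluster 10, and clusters 7 and 11 come next for Mki67 at 77.9 and 115.

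The genes that led cluster 3 were almost all genes of mitosis and of the preparation for it. The 20 genes with the highest ratio to the other clusters had mean log2 ratios between 2.29 and 2.58, and all 20 were above the other clusters in all 8 libraries. Cell cycle lists held 18 of them, the G2/M list 9 and the S phase list 0. They included Prc1, which bundles the midzone spindle (log2 ratio 2.58), Sgo2a and Sgo1, which protect sister chromatid cohesion (2.55 and 2.38), the cyclins Ccna2 and Ccnb2 (2.51 and 2.29), the mitotic kinase Plk1 (2.42), the kinetochore parts Spc24, Ndc80, Cenpe and Cenpf (2.43, 2.39, 2.34 and 2.33), and Cdc20, which activates the anaphase-promoting complex (2.37). The linker histone Hist1h1b (2.42), Hist1h2ae (2.49) and Pclaf, a partner of the replication clamp (2.29), were the leading genes tied to DNA synthesis.

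Groups of genes separated along the same line. All 52 genes of the G2/M list, all 29 mitotic kinesins and spindle genes and all 27 measured kinetochore genes were above the other clusters in all 8 libraries, with median log2 ratios of 1.94, 2.07 and 1.70. So were 38 of 42 S phase genes, at a lower median of 1.02, and 35 of 36 genes of the replicative helicase and DNA polymerases, at 1.03. All 18 replication-dependent histones were above as well (median 1.46), although their transcripts mostly lack poly(A) tails and the 3′ method can count only part of them. Over the 8369 genes with at least 5 UPM, 19.3% were above in all 8 libraries, 14.4% were below in all 8, and the median was 0.00.

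Genes lower in cluster 3 included many of the Th1 and cytotoxic list and of ribosome biogenesis and Myc-driven growth. The 10 lowest were Ifitm1 (log2 ratio -1.25), S100a6, Timp1, Basp1, Furin, Ccnd2, the D-type cyclin of G1 (-1.01), the granule protease Gzmb (-0.97), Romo1, Tnfrsf9 and Serpinf1, and all 10 were below the other clusters in all 8 libraries. Of 12 measured genes of the Th1 and cytotoxic list, 10 were below in all 8 libraries (median -1.0). Of 23 genes of ribosome biogenesis and Myc-driven growth, 15 were below (median -0.36), and of 21 glycolysis genes 13 were (median -0.21). Of 14 measured genes of the Th17 core list, 8 were below (median -0.33). Il17a, which encodes the cytokine that Th17 cells are named for, was found in 29 of 8423 cells of cluster 3 (0.344%) and in 7.24% of cells of cluster 2, where it was highest, with every cell thinned to 1500 UMIs.

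Shares of cells with a UMI were also compared with depth held equal. After thinning, Mki67 was found in 25.0% of cluster 3 cells, against 2.07 to 13.5% of the cells of the other clusters except cluster 10, where it was 27.3%. Without thinning the share in cluster 3 was 42.5%. Top2a was found in 59.2% of thinned cluster 3 cells, in 63% of those of cluster 10 and in 7.44 to 32.0% of those of the remaining clusters. Free RNA in droplets can give such UMIs to cells that do not express a gene, and the lowest of these shares bound that background.

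Cluster 10, with 1140 cells, was the cluster most like cluster 3. The mitotic genes Cenpf and Hmmr were lower in cluster 3, at 166 and 125 UPM, against 288 and 188 in cluster 10. The histone genes Hist1h2ae and Hist1h1b and the kinetochore gene Spc24 were higher in cluster 3, at 291, 302 and 154, against 159, 194 and 94.5 in cluster 10. Median UMIs per cell were 3102 in cluster 3 and 7217 in cluster 10. By library the order of the medians was not the same throughout: cluster 10 cells held fewer UMIs than cluster 3 cells in both KO Th17 libraries. With every cell thinned to 1500 UMIs, Cenpf was found in 20.7% of cluster 3 cells and in 33.4% of cluster 10 cells. The part of depth in the other differences was not tested.

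Within cluster 3 the cells ran from few to many mitotic transcripts without a gap. In cells thinned to 1500 UMIs, the G2/M list gave a median of 11 UMIs per cell (6 to 16 in the middle of the distribution, between its lower and upper quartile), against 2 (1 to 3) in all other clusters. The S phase list gave a median of 2 (1 to 3) in cluster 3, against 1 (0 to 2) in the others. UMIs of both lists were only weakly related across the 8423 cells of cluster 3 (Pearson's r 0.13, Spearman's rho 0.17), and between 0.05 and 0.19 (r) within the single libraries. With so few S phase list UMIs per cell, and 0 in 14.7% of these cells, counting error alone holds such a correlation down. How the 2 programmes relate cannot be read from it. The authors' own G2/M score was above 0 in 64.2% of cluster 3 cells and in 89.0% of cluster 10 cells, and cluster 3 held 46.1% of the 12345 cells with a score above 0.

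Cells of cluster 3 were set in 4 classes by their G2/M list UMIs, with 0 to 6, 7 to 11, 12 to 16 and 17 to 58 UMIs and 2124, 2495, 1800 and 2004 cells. The classes fix the course of the genes on the G2/M list, so these describe the scale. Cenpf, a kinetochore protein made before mitosis, stood at 24.2, 83.4, 196 and 447 UPM from the lowest class to the highest. The linker histone Hist1h1b, which is not on the list, stood at 212, 299, 348 and 391, and the replication clamp Pcna at 43.3, 58.8, 60.0 and 52.9. Klf2, a factor of resting and recirculating T cells, stood at 59.0, 78.6, 98.9 and 133, whereas the interleukin-2 receptor chain Il2ra stood at 123, 114, 108 and 99.5 and the G1 cyclin Ccnd2 at 280, 247, 263 and 224. The S phase list took 0.123, 0.172, 0.177 and 0.173% of UMIs. The libraries did not contribute evenly to the classes, so these courses also carry differences between libraries.

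**Figure D2:**
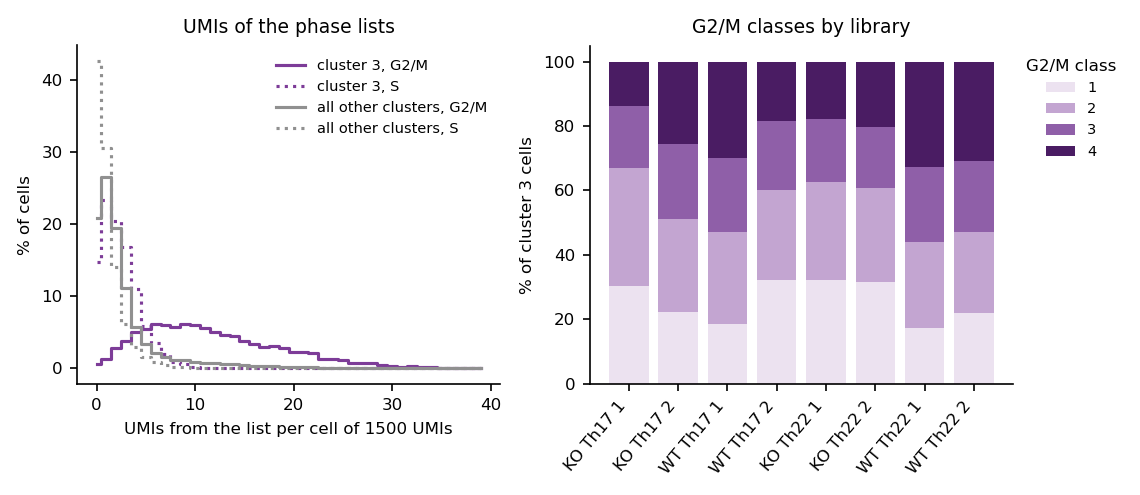
Left, percent of cells (vertical axis) by the number of UMIs from the G2/M list (solid) or the S phase list (dotted) per cell thinned to 1500 UMIs (horizontal axis), for cluster 3 (purple) and all other clusters (grey). Right, percent of thinned cluster 3 cells of each library in the 4 G2/M classes, from 0 to 6 UMIs (class 1, light) to 17 to 58 UMIs (class 4, dark); class 4 takes between 13.8% (KO Th17 library 1) and 32.8% (WT Th22 library 1).

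The size of the cluster did not separate the genotypes or the polarizations. Cluster 3 took 11.4 and 8.33% of kept cells in the KO Th17 libraries, 8.44 and 5.83% in KO Th22, 9.38 and 7.61% in WT Th17, and 10.1 and 8.13% in WT Th22. Library 1 was the higher of the pair in all 4 groups, and the ranges of KO and WT overlapped. The difference in share was -0.07 ± 0.22 on the log2 scale for KO minus WT (adjusted p = 0.766) and -0.18 ± 0.22 for Th22 minus Th17 (adjusted p = 0.778), by the quasi-likelihood test of edgeR over the cell counts of all 12 clusters. None of the 20 leading genes of cluster 3 passed the tests between genotypes or polarizations given below. Of all genes tested, 0.429% passed between genotypes and 0.572% between polarizations, so the lack of calls among 20 genes says little. Of the 10 lowest genes, Ifitm1, Timp1, S100a6 and Basp1 passed at least 1 of these tests.

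The G2/M list took a smaller share of the UMIs of cluster 3 in KO libraries by the means, within the spread of libraries. The shares were 0.646 and 0.779% in KO Th17, 0.655 and 0.683% in KO Th22, 0.845 and 0.669% in WT Th17, and 0.863 and 0.822% in WT Th22. The means were 0.691 ± 0.061% in KO and 0.80 ± 0.089% in WT (SD, n = 4 libraries each), a difference of -0.109, and the ranges overlapped through WT Th17 library 2. Permuting KO and WT among the libraries of each polarization gave an exact two-sided p = 0.111, adjusted to 0.222 over the 2 phase lists. The smallest p this permutation allows is 0.0556. It takes the libraries as unlinked, although those of the same genotype and number deviated together, so its p-values may be too small. The S phase list took 0.161 ± 0.008% in KO and 0.153 ± 0.012% in WT (exact permutation p = 0.500).

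**Figure D3:**
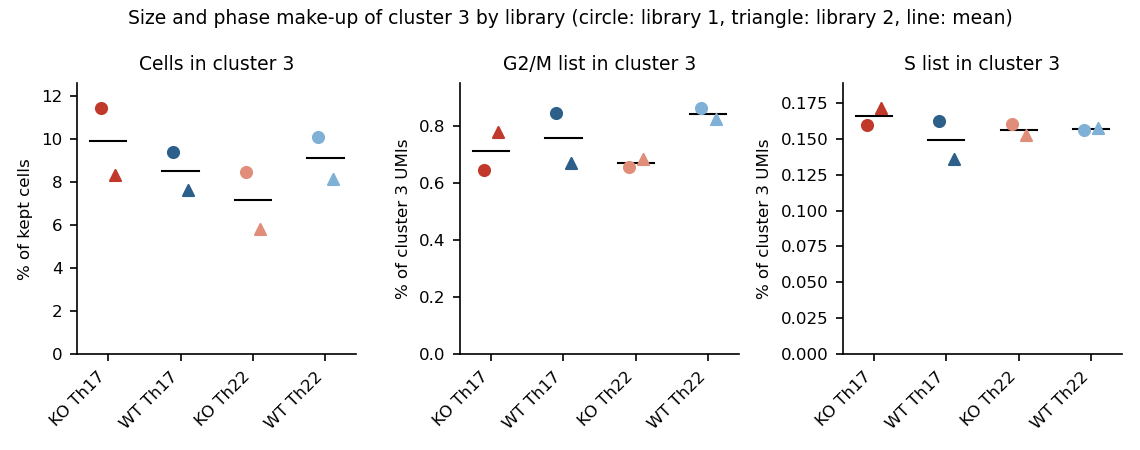
Percent of kept cells in cluster 3 (left) and percent of cluster 3 UMIs from the G2/M list (middle) and the S phase list (right) in each library, by group (horizontal axes); circles are library 1, triangles library 2 and lines group means of 2. The share of cells runs from 5.83 to 11.4%, and the G2/M share from 0.646 to 0.863% with KO and WT overlapping.

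Totals of cluster 3 ran from 3150752 to 4676469 UMIs per library over 759 to 1631 cells, and median UMIs per cell from 2545 to 4206. Across all kept cells 1199 of 100483 cell barcodes occurred in more than 1 library, and 5 of 8857 in cluster 3, with 0 identical cells. Summed markers of other cells overlapped between the genotypes, except for the platelet list. Their summed levels were 68.2 to 95.2 UPM in KO and 60.9 to 83.4 in WT for 12 B cell genes, with Ms4a1 and Pax5 at 0, and 135 to 164 in KO and 139 to 166 in WT for the measured myeloid genes, with Csf1r and Flt3 at 0. The 2 measured CD8 genes reached 6.20 to 11.5 in KO and 6.20 to 13.5 in WT, the NK genes 1.51 to 2.61 in KO and 0.851 to 2.54 in WT, the gamma-delta T cell genes 1.48 to 6.0 in KO and 0.635 to 3.12 in WT, and the measured erythroid genes were at 0. The 14 T cell identity genes summed to 5361 to 5948 in KO and 5853 to 6507 in WT. Plasma cell genes summed to 80.3 to 116 in KO and 109 to 119 in WT, and stromal genes to 12.4 to 17.7 in KO and 16.2 to 24.1 in WT. The 1 measured platelet gene, Itga2b, stood at 0.261 to 0.886 in KO and 0.952 to 1.57 in WT, from 1 to 7 UMIs per library. The part of these genes in the results below was not tested.

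KO was compared with WT within cluster 3 on UMI sums per library, to ask which transcripts differ in cells of this cluster that lack Gpr65. Gpr65 itself, on chromosome 12 (98268635 to 98276644, plus strand, mm10), had 1.92 and 1.72 counts per 1000000 after TMM scaling (CPM) in KO Th17, 0.541 and 0.978 in KO Th22, 47.6 and 43.6 in WT Th17, and 34.2 and 34.5 in WT Th22. The KO libraries were all far below the WT libraries, with a log2 fold change of -4.90 ± 0.21 (edgeR, adjusted p = 3.84e-08). After thinning, 0.114 to 0.276% of KO cells and 5.56 to 7.06% of WT cells of the cluster held a Gpr65 UMI.

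Of 9785 genes tested over both polarizations, 42 passed an adjusted p of 0.05 (0.429% of those tested), 25 higher (0.255%) and 17 lower in KO (0.174%). The median log2 fold change over all genes was 0.00. By the edgeR test the calls rest on few libraries. Leaving out KO Th17 library 1, KO Th22 library 2, WT Th17 library 1, WT Th17 library 2, WT Th22 library 1 or WT Th22 library 2 left 13, 17, 5, 6, 15 or 10 calls, and leaving out KO Th22 library 1 gave 113. Libraries of the same genotype and number deviated together across Th22 and Th17, and when they were summed, 2 KO sums against 2 WT sums left 5 calls, all of them among the 42.

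Interferon-induced membrane genes fell in KO. Ifitm3, whose product restricts the entry of viruses, had 20.1 and 19.5 CPM in KO Th17 and 56.3 and 48.3 in KO Th22, against 81.7 and 76.1 in WT Th17 and 192 and 153 in WT Th22. KO was below WT in each polarization with no overlap, and the log2 fold change was -1.84 ± 0.12 (edgeR, adjusted p = 4.23e-06). Its neighbour and near relative Ifitm1 had 6.20 and 3.44 CPM in KO Th17 and 81.5 and 49.2 in KO Th22, against 65.4 and 66.7 in WT Th17 and 340 and 294 in WT Th22. The fold change of Ifitm1 was -2.75 ± 0.28 (edgeR, adjusted p = 0.00562), and the KO Th22 and WT Th17 libraries overlapped. Reads shared between the Ifitm paralogs could be split between them. Of the 16 tested genes of the interferon list, these 2 fell, where 0.174% of all genes fell, 0 rose and 12 were higher in KO by sign.

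Other genes that fell by the naming rule included S1pr1 and Lbr. S1pr1, the receptor that lets T cells leave lymphoid organs, had 25.7 and 21.2 CPM in KO Th17 and 34.6 and 24.8 in KO Th22, against 43.4 and 35.8 in WT Th17 and 45.3 and 50.8 in WT Th22 (log2 fold change -0.71 ± 0.14, edgeR, adjusted p = 0.0444). Lbr, the lamin B receptor of the inner nuclear membrane and the only G2/M list gene to pass, had 70.3 and 79.0 CPM in KO Th17 and 91.5 and 81.8 in KO Th22, against 106 and 99.2 in WT Th17 and 127 and 123 in WT Th22 (-0.50 ± 0.09, edgeR, adjusted p = 0.0443). All KO libraries were below all WT libraries for both genes, S1pr1 by a narrow margin. Ltb4r1, the leukotriene B4 receptor, Tent5a, a poly(A) polymerase, Ecm1, a secreted matrix protein, Dhx40, a helicase, and Tmem71 fell by 1.20, 1.09, 0.90, 0.77 and 0.62 on the log2 scale. The test was repeated under 20 other settings, such as other filters, covariates or a library left out. S1pr1 passed in only 7 of these, Tmem71 in 8, Lbr in 9 and Dhx40 in 12. Ltb4r1, Tent5a and Ecm1 passed in 13 each.

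Nkg7, which encodes a membrane protein of cytotoxic granules, rose most among the genes named. It had 38.7 and 51.1 CPM in KO Th17 and 17.6 and 26.4 in KO Th22, against 6.93 and 12.7 in WT Th17 and 4.51 and 5.99 in WT Th22. Every KO library was above every WT library (log2 fold change 2.14 ± 0.21, edgeR, adjusted p = 0.000517). It was the only one of 10 tested genes of the Th1 and cytotoxic list to pass (median 0.43), where 0.429% of all genes passed. Lgals7, a galectin, had 72.7 and 84.1 CPM in KO Th17 and 46.6 and 63.9 in KO Th22, against 28.9 and 19.5 in WT Th17 and 29.0 and 25.1 in WT Th22 (1.35 ± 0.18, edgeR, adjusted p = 0.00613), again with no overlap. Pdcd1lg2, the second ligand of PD-1, Ide, the insulin-degrading enzyme, the interferon-induced Ifi27 and Timp1, an inhibitor of metalloproteinases, rose by 1.1, 0.97, 0.84 and 0.66. Under the 20 other settings, Pdcd1lg2 passed in 9, Ifi27 and Timp1 in 10 each and Ide in 13.

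Of 25 tested genes of the ATF4 amino acid response, 4 rose in KO and 0 fell, with 21 higher by sign and a median of 0.24, where 0.255% of all genes rose. Nupr1, a small stress-induced nuclear protein, had 164 and 120 CPM in KO Th17 and 102 and 71.1 in KO Th22, against 53.3 and 57.2 in WT Th17 and 40.2 and 46.2 in WT Th22 (log2 fold change 1.19 ± 0.15, edgeR, adjusted p = 0.00430). Psph, which makes serine, had 83.6 and 103 CPM in KO Th17 and 79.3 and 97.8 in KO Th22, against 61.8 and 55.6 in WT Th17 and 58.2 and 43.9 in WT Th22 (0.72 ± 0.13, edgeR, adjusted p = 0.0318). Asns, which makes asparagine, had 119 and 118 CPM in KO Th17 and 113 and 88.7 in KO Th22, against 82.9 and 87.5 in WT Th17 and 66.0 and 69.3 in WT Th22 (0.53 ± 0.10, edgeR, adjusted p = 0.0444). KO and WT did not overlap for these 3 genes, Asns by 88.7 against 87.5. Cth, which makes cysteine, rose by 1.56 ± 0.29, with 9.79 ± 2.89 CPM in KO libraries against 3.40 ± 1.73 CPM in WT libraries (SD, n = 4 each). Under the 20 other settings, Nupr1 passed in 18 and Psph in only 12, and Asns and Cth were not followed through them.

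Some nuclear genes of mitochondrial proteins rose in KO as well. Of 34 tested respiratory chain genes 2 rose, 29 were higher by sign, and the median was 0.11. Of all 9785 genes tested, 0.255% rose and 4942 were higher by sign. Atp5g1, a c subunit of the ATP synthase, had 207 and 237 CPM in KO Th17 and 185 and 216 in KO Th22, against 144 and 132 in WT Th17 and 138 and 127 in WT Th22 (log2 fold change 0.64 ± 0.09, edgeR, adjusted p = 0.0130). Lonp1, the mitochondrial matrix protease, had 66.5 and 75.2 CPM in KO Th17 and 45.2 and 45 in KO Th22, against 35.9 and 32.2 in WT Th17 and 28.4 and 27.1 in WT Th22 (0.88 ± 0.12, edgeR, adjusted p = 0.00713). Both genes were higher in every KO library than in any WT library, and Uqcrq of complex III rose by 0.43 ± 0.08. Of 23 tested genes of ribosome biogenesis and Myc growth, 21 were higher by sign (median 0.33) and 0 passed.

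**Figure D4:**
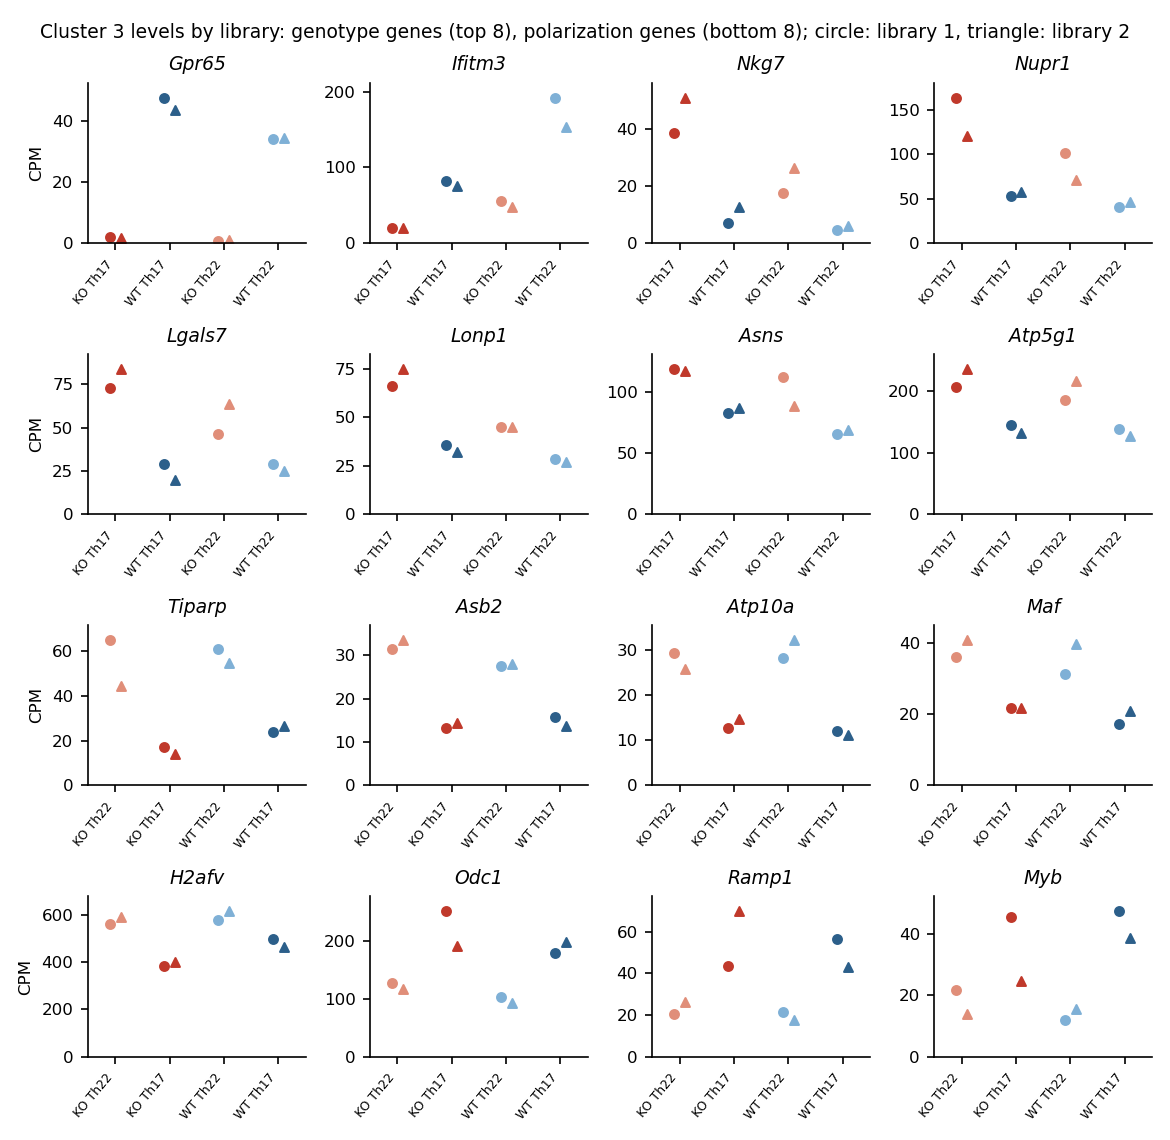
CPM after TMM scaling (vertical axes, from 0) of 16 genes in cluster 3 of each library, by group (horizontal axes); circles are library 1 and triangles library 2. In the upper 8 panels, chosen from the genes that passed between KO (red) and WT (blue), Gpr65 and Ifitm3 are lower and the other 6 higher in KO; in the lower 8, chosen from those that passed between Th22 (light) and Th17 (dark), Tiparp to H2afv are higher and Odc1, Ramp1 and Myb lower in Th22.

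Cell cycle genes gave few calls between genotypes, and so did all genes tested, of which 0.429% passed. The 4 naming markers were all lower in KO by sign (median -0.20) and 0 passed, and Mki67 averaged 179 ± 19.5 CPM over the KO libraries against 202 ± 14.5 CPM over the WT libraries (SD, n = 4 each, edgeR, adjusted p = 0.489). Of 52 G2/M genes, 49 were lower by sign (median -0.18) and 1, Lbr, passed. Of 29 kinesin and spindle genes 28 were lower by sign (median -0.17), of 28 kinetochore genes 24 were (median -0.14), and 0 of either passed. S phase and nucleotide synthesis genes lay on the other side: 29 of 42 (median 0.12) and 18 of 21 (median 0.23) were higher by sign, with 0 passing in both lists. The members of a list were measured in the same cells and libraries, so these counts are no independent evidence of direction.

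**Figure D5:**
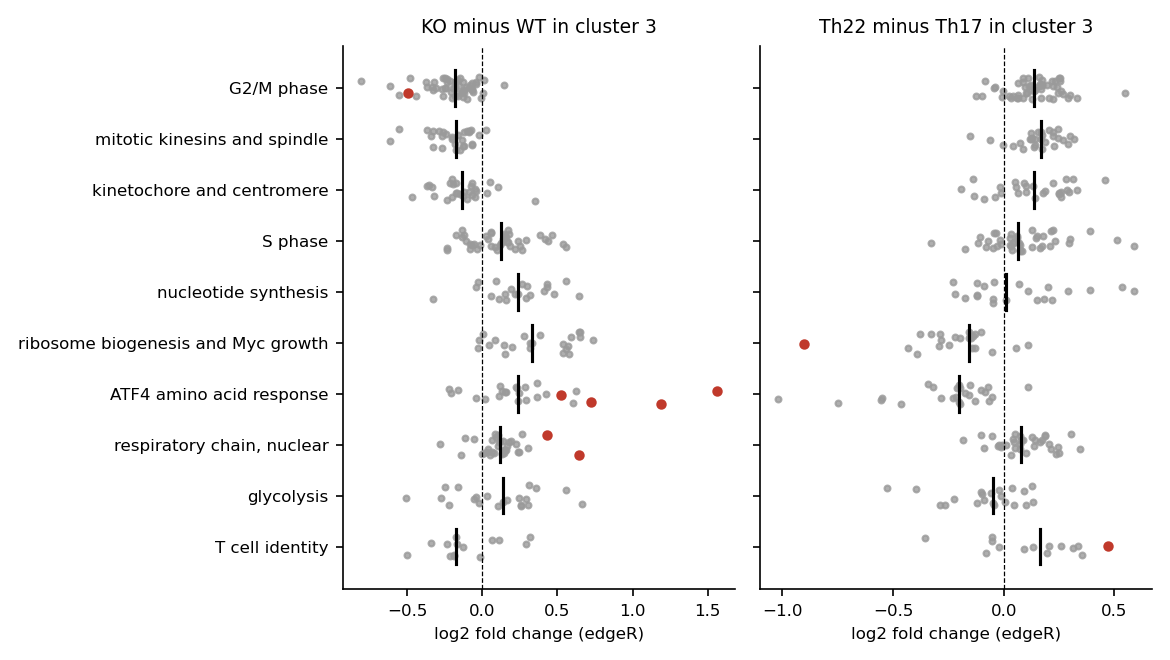
Log2 fold change by edgeR (horizontal axes) of each tested gene of 10 lists (vertical axis) in cluster 3, KO minus WT on the left and Th22 minus Th17 on the right; large red points passed an adjusted p of 0.05, grey points did not, and black lines are list medians. The median of the G2/M list is -0.18 on the left and 0.14 on the right, and that of ribosome biogenesis and Myc growth 0.33 on the left and -0.15 on the right.

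Within Th17, 16 of the 9785 genes passed between KO and WT (0.164%), 8 higher and 8 lower in KO (0.0818% each way). Klf2, which drives the S1pr1 programme of resting T cells, had 38.5 and 51.4 CPM in KO Th17 and 111 and 95.6 in WT Th17 (log2 fold change -1.21 ± 0.18, edgeR, adjusted p = 0.0256). Serpinb1a, an inhibitor of serine proteases, had 43.0 and 39.9 in KO Th17 and 97.6 and 110 in WT Th17 (-1.32 ± 0.15, edgeR, adjusted p = 0.00377). Rcbtb2 and the claudin Cldn10 fell as well, by 1.63 and 1.53, beside Gpr65, Ifitm1 (-3.72) and Ifitm3 (-1.99). S100a6, a calcium-binding protein, had 139 and 162 CPM in KO Th17 and 48.2 and 48.5 in WT Th17 (1.64 ± 0.25, edgeR, adjusted p = 0.0362). Lgals3, Plek, Lgals7, Lonp1, Nupr1 and Nkg7 rose by 1.05 to 2.19. The count was 3 with the median UMIs per cell of each library as a covariate, and leaving out KO Th17 library 1, KO Th17 library 2, WT Th17 library 1, WT Th17 library 2, WT Th22 library 1 or WT Th22 library 2 left 6, 10, 5, 3, 4 or 4.

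Within Th22, 4 genes passed (0.0409%), all lower in KO. These were Gpr65 (log2 fold change -5.47), Ifitm1 (-2.27), Ifitm3 (-1.72) and Olfr1369-ps1 (-1.31), the last a pseudogene of the olfactory receptor family, at 96.4 and 72.4 CPM in KO Th22 and 196 and 223 in WT Th22. Leaving out WT Th22 library 1 left 1 call. Klf2 had 77.1 and 97.2 CPM in KO Th22 and 101 and 91.8 in WT Th22, which overlapped. No gene passed the test of whether the KO minus WT difference itself differed between Th22 and Th17 (0 of 9785 with edgeR and 0 with DESeq2). By edgeR, 439 had an unadjusted p under 0.05. These fits had no block for libraries of the same genotype and number, which deviated together across Th22 and Th17. Whether a fit with that block would call genes was not tested. A call in Th17 and not in Th22 is thus not shown to differ between them.

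Th22 was compared with Th17 within cluster 3 over both genotypes, and 56 of 9785 genes passed (0.572%), 32 higher (0.327%) and 24 lower in Th22 (0.245%). Because libraries of the same genotype and number deviated together, a fit with genotype and number as a block was also made. It called 397 genes, 192 higher and 205 lower, among them all 56. Leaving out KO Th17 library 1, KO Th22 library 2, WT Th17 library 1, WT Th22 library 1 or WT Th22 library 2 left 31, 37, 21, 36 or 24 calls, thinning every cell to 1500 UMIs left 28, and the median UMIs per cell of each library as a covariate left 18. Median UMIs per cluster 3 cell were 4206 and 3877 in KO Th22 and 2930 and 3799 in WT Th22, against 2545 and 2671 in KO Th17 and 2770 and 3995 in WT Th17, and the part of depth in the other calls was not tested.

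Targets of the AHR rose in the cluster 3 cells of Th22 cultures. Of 8 tested genes of the AHR and Th22 list, 5 rose and 1 fell, with a median log2 fold change of 1.29, where 0.327% of all genes rose. Tiparp, an ADP-ribosyltransferase that feeds back on the AHR, had 65.2 and 44.7 CPM in KO Th22 and 61.2 and 54.7 in WT Th22, against 17.1 and 14.1 in KO Th17 and 23.8 and 26.7 in WT Th17 (log2 fold change 1.5 ± 0.17, edgeR, adjusted p = 0.00164). Asb2, a subunit of a ubiquitin ligase, had 31.4 and 33.6 CPM in KO Th22 and 27.5 and 27.9 in WT Th22, against 13.3 and 14.4 in KO Th17 and 15.7 and 13.7 in WT Th17 (1.08 ± 0.14, edgeR, adjusted p = 0.00264). Th22 libraries were above Th17 libraries in every case for both genes. The cytochrome Cyp1a1 had 8.39 and 6.85 CPM in KO Th22 and 4.30 and 7.13 in WT Th22, against 0 and 0.287 in KO Th17 and 0 in both WT Th17 libraries. Cyp1a1, Cyp1b1 and the AHR repressor Ahrr passed at such low counts that their fitted fold changes depend on the prior count, and they are not given as folds. Il24, also on the list, had 0.271 and 0 CPM in KO Th22 and 1.72 and 1.71 in WT Th22, against 1.71 and 2.87 in KO Th17 and 8.74 and 11.4 in WT Th17.

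Several genes of T cell differentiation and interferon defence rose with them. Maf, a transcription factor of helper cells that make IL-10 and IL-21, had 36 and 40.8 CPM in KO Th22 and 31.2 and 39.6 in WT Th22, against 21.8 and 21.5 in KO Th17 and 17.2 and 20.8 in WT Th17 (log2 fold change 0.86 ± 0.13, edgeR, adjusted p = 0.00854). Maf, Tmem176a and Tmem176b rose and Il24 fell among 14 tested genes of the Th17 core list (median -0.11). Of 16 interferon genes, Ifitm1, Ifitm3 and Ddx58, which encodes the RNA sensor RIG-I, rose and 15 were higher by sign (median 0.47). Of all 9785 genes tested, 0.327% rose and 0.245% fell in Th22, and 4889 were higher by sign. Atp10a, a lipid flippase, had 29.2 and 25.8 CPM in KO Th22 and 28.2 and 32.2 in WT Th22, against 12.6 and 14.6 in KO Th17 and 12.1 and 11.1 in WT Th17 (1.19 ± 0.15, edgeR, adjusted p = 0.00264). Plac8, Cldnd1, the repressor Hic1, the haem synthesis enzyme Cpox and the histone gene Hist3h2ba rose by 1.80, 1.36, 1.20, 0.98 and 0.92. The CD3 chain Cd3g was the only one of 14 T cell identity genes to pass (0.47 ± 0.09).

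Genes that fell in Th22 included Odc1, Ramp1 and Cd274. Odc1, the enzyme that starts polyamine synthesis, had 127 and 117 CPM in KO Th22 and 103 and 91.5 in WT Th22, against 251 and 191 in KO Th17 and 179 and 197 in WT Th17 (log2 fold change -0.90 ± 0.11, edgeR, adjusted p = 0.00200). It was the only gene of 23 in ribosome biogenesis and Myc growth to pass, where 0.572% of all genes passed. By sign, 21 of the 23 were lower (median -0.15). Ramp1, which makes the receptor for the neuropeptide CGRP, had 20.3 and 26.4 CPM in KO Th22 and 21.5 and 17.7 in WT Th22, against 43.6 and 70.1 in KO Th17 and 56.4 and 43.3 in WT Th17 (-1.31 ± 0.17, edgeR, adjusted p = 0.00310). The Th22 libraries lay below all Th17 libraries for both genes. Myb, a transcription factor of lymphocyte precursors and dividing cells, Cd274, which encodes PD-L1, Basp1 and the endosomal tether Eea1 fell by 1.32, 1.30, 1.09 and 0.71. Ntrk3, Nfkbib (an inhibitor of NF-kappa-B), Pmepa1 and Hemk1 fell by 0.69, 0.64, 0.57 and 0.55. Under 19 other settings of this test, Hemk1 passed in 6, Nfkbib and Pmepa1 in 8 each, Ntrk3 in 10 and Myb in 11. Among the genes that rose, Ddx58 passed in 12 and Hic1 and Hist3h2ba in 13 each.

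The G2/M, spindle and S phase lists gave no calls between the polarizations, where 0.572% of all genes passed. Of 52 G2/M genes 45 were higher in Th22 by sign (median 0.14), of 29 kinesin and spindle genes 26 were (median 0.17), of 42 S phase genes 30 were (median 0.07), and 0 of these passed. The ATF4 list, 4 of whose genes rose in KO, was lower in Th22 for 24 of 25 genes by sign (median -0.20), and 0 passed. The variant histones H2afy (macroH2A) and H2afv (H2A.Z), picked out after their values were seen, rose by 0.57 ± 0.11 and 0.43 ± 0.09 (edgeR, adjusted p = 0.0308 and 0.0472). H2afv had 559 and 588 CPM in KO Th22 and 578 and 616 in WT Th22, against 381 and 402 in KO Th17 and 496 and 465 in WT Th17. Th22 and Th17 libraries did not overlap for H2afv.

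Whether a difference between groups was itself different between cluster 3 and the other clusters was tested on 16 sums. These were cluster 3 and the rest of each library, with the library as a block and CPM scaled over the 16 sums. Of 12205 genes, 12 passed for KO minus WT (0.0983%), 8 with a higher difference in cluster 3 (0.0655%) and 4 with a lower one (0.0328%). For Th22 minus Th17, 4 passed (0.0328%), 2 higher and 2 lower (0.0164% each way). Those 4 were Cdkn1a and the unnamed gene model 9230114K14Rik (1.18 ± 0.22), with a higher difference in cluster 3, and the costimulatory receptor Tnfrsf4 (-0.25 ± 0.04) and Nkg7, with a lower one. Cdkn1a, which encodes the kinase inhibitor p21, had 172 and 145 CPM in KO Th22 and 177 and 166 in WT Th22 in cluster 3, against 139 and 127 in KO Th17 and 113 and 106 in WT Th17. In the other clusters it had 174 and 173 CPM in KO Th22 and 174 and 165 in WT Th22, against 176 and 171 in KO Th17 and 162 and 160 in WT Th17. Cdkn1a was thus lower in cluster 3 of the Th17 libraries than in cluster 3 of the Th22 libraries or in the other clusters. The difference of the differences was 0.41 ± 0.06 (edgeR, adjusted p = 0.000833). DESeq2 called 0 genes in this test, and leaving out WT Th22 library 2 left 2 while leaving out KO Th17 library 1, KO Th17 library 2, KO Th22 library 2 or WT Th22 library 1 gave 11, 16, 11 or 10. The p53 targets Ccng1 and Bax had differences of 0.30 and 0.27 and did not pass (edgeR, adjusted p = 0.16 each).

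The genes whose KO minus WT difference was higher in cluster 3 were Cd52, Prdx2, mt-Cytb, Pkm, Tnfrsf4, Junb, Espn and Romo1, by 0.21 to 0.33. Those with a lower one were Chchd10, Ftl1, Atp6v0d2 and Eif1, by -0.18 to -0.45. None of these genes passed between KO and WT within cluster 3 alone. Higher and lower refer to the signed difference, so a higher one can also mean lower KO levels in the other clusters. Cd52, a surface glycoprotein of lymphocytes, had 927 and 1230 CPM in KO Th17 and 1126 and 1924 in KO Th22, against 1020 and 1029 in WT Th17 and 1403 and 1290 in WT Th22, within cluster 3. In the other clusters it had 1120 and 1498 in KO Th17 and 1344 and 2349 in KO Th22, against 1470 and 1409 in WT Th17 and 2069 and 1829 in WT Th22, and the difference of the differences was 0.24 ± 0.04 (edgeR, adjusted p = 0.00117). KO libraries 1 and 2 differed widely in several of these genes. Pkm, the pyruvate kinase of glycolysis, had 437 and 868 CPM in KO Th17 and 452 and 966 in KO Th22, against 529 and 430 in WT Th17 and 504 and 388 in WT Th22, and Atp6v0d2, a proton pump subunit, 51.7 and 17.6 in KO Th17 and 69.0 and 18.2 in KO Th22, against 101 and 145 in WT Th17 and 106 and 116 in WT Th22. DESeq2 called 1 gene, thinning gave 21, and leaving out WT Th17 library 1 or WT Th22 library 2 left 3 or 7, whereas leaving out KO Th17 library 2 or KO Th22 library 1 gave 32 or 30. Nkg7, whose KO minus WT difference was 2.14 in cluster 3 and 1.49 in the others, did not pass this test (0.64 ± 0.15, edgeR, adjusted p = 0.07), although its Th22 minus Th17 difference was lower in cluster 3 (-0.64 ± 0.13).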

How the data were processed

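The authors deposited 1 matrix of UMI counts per gene and cell for all 8 libraries, made with a 10x Genomics 3′ v3 kit per the labels' protocols, with 16649 gene symbols, 104660 cells and 354411580 UMIs. The submitters' processing notes name Cell Ranger 5.0.1, Seurat and mm10 but not the role of each. The authors' deposited cell table gives each cell's library, counts, percent of mitochondrial UMIs (at most 9.99), S and G2/M scores and cluster number, whose making is not given in those notes or the labels. No cell had over 9999 UMIs or under 201 genes.

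Cells with at least 500 genes were kept, which left out 2972. No doublet caller was run, and an alternative leaves out the 8% of cells with most UMIs per library (8136 cells). UMI counts were summed per library over cluster 3, and tested with edgeR 4.0.16 (quasi-likelihood, robust, TMM, filterByExpr) in R 4.3.3, with Benjamini-Hochberg adjustment at 0.05 over all genes tested. KO minus WT was adjusted for polarization and Th22 minus Th17 for genotype. Log2 fold changes carry the standard error implied by the test. CPM were computed here from the deposited counts after TMM scaling, and UPM (UMIs per 1000000) without it. For shares of cells with a UMI, cells were thinned to 1500 UMIs, and 439 cells of cluster 3 were too shallow for that. DESeq2 1.42.0 was an alternative, as were other filters, scalings, covariates, blocks and leaving out each library. Each fit across genes was tested on simulated counts with known changes. The simulated libraries varied independently, so that could not show how p-values hold where libraries deviate together. Intervals and floors cover counting error only.

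Libraries of the same genotype and number deviated from their group means together across Th22 and Th17 (correlations 0.70 in KO and 0.36 in WT over 6431 genes), which pairs them for that comparison, while those of KO and WT with the same number did not (-0.40 to -0.33). Named genes were the 20 highest and 10 lowest of cluster 3 by ratio, and, per test, the 10 largest rises and falls that passed, averaged 10 CPM or more and did not overlap between groups, with up to 4 genes of each list described. The members and lists were chosen with earlier results of these data known. Positions come from a GENCODE annotation of mm10 by symbol, and promoter windows from RefSeq.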

Additional observations from a re-analysis of the deposited data

Results flagged for a closer look

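Among 224 groups of 4 libraries looked at, 4 held a library that stood apart from the other 3 by Dixon's criterion, where chance gives about 1 in 20 groups. Median UMIs per cluster 3 cell were 3995 in WT Th17 library 2, apart from the other Th17 libraries. H2afy had 903 CPM in KO Th22 library 1, below the other Th22 libraries, and Nfkbib had 31.0 CPM in KO Th22 library 2, above them. Ifi27 had 171 CPM in KO Th22 library 2, above the other KO libraries.

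For 12 genes the KO minus WT difference in cluster 3 differed from that in all other clusters by the edgeR test of the difference. On the log2 scale the difference of the differences was 0.24 for Cd52, 0.25 for Prdx2, 0.22 for mt-Cytb, 0.23 for the pyruvate kinase Pkm, 0.21 for the costimulatory receptor Tnfrsf4, 0.22 for Junb, 0.22 for Espn and 0.33 for Romo1. It was -0.25 for Chchd10, -0.20 for the ferritin light chain Ftl1, -0.45 for the proton pump subunit Atp6v0d2 and -0.18 for the initiation factor Eif1. For Th22 minus Th17 it was 0.41 for Cdkn1a, -0.25 for Tnfrsf4 and -0.64 for Nkg7.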

How the results depend on the processing

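Calls between KO and WT over both polarizations numbered 42, against 66 with DESeq2, 286 without a filter on low counts, 249 with the G2/M share as a covariate, 24 with the replicate number as a replicate block (22 of the 42 among them), 5 with Th17 and Th22 libraries summed, and 5 to 113 with 1 library left out. Within Th17 the 16 calls became 194 without the filter, 3 with median UMIs and 74 with the G2/M share as a covariate, and 3 to 24 with 1 library left out. Within Th22 the 4 calls became 8 with DESeq2, 86 without the filter and 1 to 6 with 1 library left out. A crossed replicate block, chosen after seeing the data, gave 406, 414 and 126 calls for these 3 comparisons. Th22 against Th17 gave 56 calls, 246 without the filter, 28 with thinned cells, 18 with median UMIs and 133 with the G2/M share as a covariate, 397 with a replicate block of genotype and number, and 21 to 67 with 1 library left out; the plain replicate block gave 51.

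The interaction gave 0 calls, 39 without the filter and 0 with any library left out. The difference of KO minus WT between cluster 3 and the other clusters gave 12 calls, 1 with DESeq2, 31 without the filter, 21 with thinned cells and 3 to 32 with 1 library left out. That of Th22 minus Th17 gave 4 calls, 0 with DESeq2, 16 without the filter, 9 with at least 1000 genes per cell, 7 without the cells with most UMIs and 2 to 16 with 1 library left out. The median log2 ratio of the 4 markers to the other clusters was 2.40, and 2.78 with thinned cells. The KO minus WT difference in the share of cells lay between -0.222 and 0.0885 with 1 library left out, and was above 0 without KO Th22 library 2 (0.0885) or WT Th22 library 1 (0.053). The Th22 minus Th17 difference in share lay between -0.31 and -0.03. The G2/M share differed by -0.153 to -0.065 between KO and WT (exact permutation p of 0.111 to 0.333) and the S share by 0.001 to 0.014. The cause of these changes was not tested. Gpr65, Ifitm3 and Nkg7 passed between KO and WT under all 20 of the other settings tried.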
